A study of Rattus norvegicus with 65 samples.

Results

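The genes of the proteasome, the protease that degrades ubiquitin-tagged proteins, were examined in the hypothalamus of male Wistar rats treated for obesity. Members were the protein-coding genes whose symbol starts with Psma, Psmb, Psmc or Psmd followed by a digit. The rule found 40 of the 38513 genes in the count table. Of these, 39 encode a proteasome subunit or an assembly chaperone named as one, and Psmc3ip, a cofactor of meiotic recombination, shares only the start of the symbol. The filter on low counts kept 39 of the 40. The alpha subunit Psma8, which replaces another alpha subunit in the testis, did not pass: it had 0 counts in 37 of 65 libraries. Psmb11, a beta subunit of the thymus, passed the filter with a median of only 0.435 TPM (transcript abundance scaled to exon length and library).

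The 65 libraries, 1 per animal, came from 8 groups of adult male Wistar rats, an outbred strain. The groups other than lean had become obese on 6 weeks of high-fat diet. Of these, 14 rats underwent Roux-en-Y gastric bypass (RYGB), 11 a sham operation, and 7 rats (BWM) had their food limited with the aim of a weight course like that after RYGB. BWM rats were nevertheless heavier than RYGB-treated rats at the end of the study. The study's abstract lists BWM rats as sham-operated too, while its methods name only their food restriction. Liraglutide, a stable analogue of the gut hormone GLP-1, was given under the skin at 0.4 mg/kg/day to 5 rats. The gut hormone PYY3-36 was delivered by osmotic minipump at 0.1 mg/kg/day to 4 rats, and both agents were given to 10 rats. Saline alone, by minipump and under the skin, was given to 8. Rats given a single agent received saline by the other route. Apart from BWM rats, the obese groups chose freely between high-fat and low-fat food after the intervention, and brains were collected 4 weeks later after 10 h of fasting. The labels of the 6 lean rats give no diet. The study also names a group kept on low-fat diet only, and the labels do not say whether these are the same rats. Animals were studied in 2 experimental periods, batch A with 37 libraries and batch B with 28. RYGB (11 and 3), sham (5 and 6), saline (3 and 5) and PYY3-36 + liraglutide (5 and 5) were in both, BWM and lean only in batch A, and PYY3-36 and liraglutide only in batch B.

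The proteasome consists of a barrel-shaped core particle capped by regulatory particles. The core particle stacks outer rings of alpha subunits (Psma1 to Psma7), which gate the entry, on inner rings of beta subunits (Psmb1 to Psmb7), of which Psmb5, Psmb6 and Psmb7 cut peptide bonds. Interferons induce the alternative catalytic subunits Psmb8, Psmb9 and Psmb10, which form the immunoproteasome and trim peptides for antigen presentation. In the regulatory particle, the ATPases Psmc1 to Psmc6 unfold the substrate. Psmd1, Psmd2 and Psmd4 bind ubiquitin or its shuttle proteins, and the lid carries Psmd14, which removes the ubiquitin chain. Psmd5, Psmd9 and Psmd10 are chaperones of regulatory particle assembly. The transcription factor Nfe2l1 raises the subunit genes together when proteasome activity falls, through antioxidant response elements in their promoters.

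Libraries held 20041010 to 36539941 counts, with medians of 29571658 in batch A and 23386048 in batch B. All 12 hypothalamic markers were measured, and their summed level ranged from 54.4 to 8464 CPM (counts scaled to the size of the library) with a median of 1916. In 11 libraries it was under 0.1 of that median (2 each of sham, lean, saline and liraglutide, 1 each of BWM, PYY3-36 and PYY3-36 + liraglutide, and none of RYGB). These 11 libraries go against the labelled tissue. The comparison of RYGB with sham is given below with and without them, and the other comparisons only with them. In bulk tissue, fewer cells of a type and less RNA per cell cannot be told apart.

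Promoter sequences bear on these genes because the subunits are known to be transcribed together. RefSeq promoters of the GRCr8 build, a later build than the Rnor_6.0 of the counts, covered 250 bases before and 50 after the gene start and were found for 35 of the 40 members. The core of the antioxidant response element, TGACNNNGC on either strand, was present in 7 of 35 (Psma3, Psmb2, Psmb5, Psmb6, Psmd1, Psmd3 and Psmd9), compared with 12.1% of all 33469 promoters. The CCAAT box, the sequence bound by the factor NF-Y, on either strand was present in 19 of 35 (54.3%), compared with 37.5% of all promoters. Of the 10 genes that were lower after RYGB (below), 9 had a promoter in the table; 2 of the 9 held TGACNNNGC and 6 held CCAAT. Shown here, 5′ to 3′, are the 100 bases before the start of 5 of these genes, chosen because a match lies there, with the matches in capitals:
Psmb2 (chr5:144254958-144255057, plus strand): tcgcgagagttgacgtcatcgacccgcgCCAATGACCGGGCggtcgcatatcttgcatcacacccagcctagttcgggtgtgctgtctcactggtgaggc
Psmb5 (chr15:32047380-32047479, minus strand): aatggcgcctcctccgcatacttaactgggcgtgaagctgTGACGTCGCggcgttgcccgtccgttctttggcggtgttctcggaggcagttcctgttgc
Psma5 (chr2:198584405-198584504, plus strand): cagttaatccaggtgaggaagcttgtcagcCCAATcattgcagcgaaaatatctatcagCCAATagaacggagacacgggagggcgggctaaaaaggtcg
Psma2 (chr17:55260442-55260541, minus strand): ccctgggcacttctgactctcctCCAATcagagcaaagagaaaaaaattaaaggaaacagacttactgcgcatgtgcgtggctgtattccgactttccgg
Psmd13 (chr1:205394148-205394247, plus strand): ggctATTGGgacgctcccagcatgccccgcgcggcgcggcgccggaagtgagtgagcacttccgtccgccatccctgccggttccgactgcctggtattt
Counting the base before the start as position -1, Psmb2 had a CCAAT starting at -72 that overlapped by its last base a TGACNNNGC starting at -68. The TGACNNNGC of Psmb5 started at -60. Psma5 had a CCAAT at -70 and again at -41, Psma2 had one at -77, and Psmd13 had it at -96 on the opposite strand, read here as ATTGG. Psmd4, whose bases are not printed, also had a match there, an ATTGG starting at -9.

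Per length, the constitutive subunits had higher median levels than the inducible ones. The highest median levels over all libraries were those of the ATPase Psmc5 (474 TPM), the beta subunit Psmb4 (461 TPM) and the catalytic Psmb7 (415 TPM). Of the other catalytic subunits, Psmb5 was at 376 TPM and Psmb6 at 308 TPM. By role, the median level was 376 TPM for the beta ring, 262 TPM for the ATPases, 217 TPM for the alpha ring, 161 TPM for the lid and 36.98 TPM for the assembly chaperones. The deubiquitinase Psmd14 was at 124 TPM, the lid scaffold Psmd11 at 58.2 TPM and the chaperone Psmd10 at 41.2 TPM. The inducible Psmb10, Psmb9 and Psmb8 were at 51.8, 17.96 and 9.69 TPM. They also varied most between animals among well-detected members, with coefficients of variation of 19.1%, 44.1% and 34.0%, while the lowest was 7.56% for Psma1.

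Sham-treated rats had the highest median level of 25 of the 39 members, and liraglutide-treated rats of 8. The lowest median was that of lean rats for 17 members, of RYGB-treated rats for 9 and of BWM rats for 9. The members together made up 0.361% to 0.559% of a library, with medians of 0.508% in sham-treated, 0.453% in saline-treated, 0.431% in RYGB-treated, 0.423% in BWM and 0.419% in lean rats. Each order is a description of medians across groups of unequal batch make-up.

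Compared with sham-treated rats, RYGB-treated rats had lower levels of several core particle subunits and of 3 subunits of the regulatory particle. Of 39 members, 10 were lower and 0 higher (edgeR quasi-likelihood test with a batch term, Benjamini-Hochberg adjusted p under 0.05), where 6.51% of the 21882 genes tested were lower and 6.52% higher. The 39 log2 fold changes had a median of -0.20, beside -0.02 over all genes, and 34 were negative. At an unadjusted p under 0.05, 23 members were lower and 1 higher, where 30% of all genes passed and 16.2% were lower. No called member reached an absolute log2 fold change of 1, which 2.38% of all genes did among the 13% called in either direction.

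The alpha ring had 4 of 7 genes lower, with a ring median of -0.27. Psma7 (chr3:175420042-175426384 in Rnor_6.0, minus strand) was at 107, 121 and 214 CPM in RYGB-treated rats and at 136, 172 and 187 CPM in sham-treated rats (lowest, median and highest). Of 14 RYGB-treated rats, 13 were below the sham median and 11 below every sham-treated rat, but the groups overlapped because 1 RYGB-treated rat had the highest level of all. The log2 fold change was -0.36 ± 0.092 (SE, edgeR adjusted p = 0.00801). Psma4 was at 87.6, 104 and 162 CPM after RYGB and at 102, 143 and 164 CPM after sham, a log2 fold change of -0.32 ± 0.090 (edgeR adjusted p = 0.0158). Psma5 (-0.27, edgeR adjusted p = 0.0222) and Psma2 (-0.31, edgeR adjusted p = 0.0346) also fell, while Psma1, Psma3 and Psma6 ranged from -0.19 to -0.11 without passing the test.

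The beta ring had 2 of 7 genes lower, with a median of -0.26. Psmb2 (chr5:144702004-144734220 in Rnor_6.0, plus strand), the gene printed above with both promoter motifs, was at 65.8, 72.7 and 122 CPM after RYGB and at 74.4, 106.3 and 113 CPM after sham (lowest, median and highest). Again 13 of 14 RYGB-treated rats were below the sham median and 1 was above every sham-treated rat, and the log2 fold change was -0.36 ± 0.085 (SE, edgeR adjusted p = 0.00531). Among the constitutive catalytic subunits, Psmb5 was at 114, 131 and 234 CPM after RYGB and at 138, 189 and 214 CPM after sham, a fall of -0.29 ± 0.10 on the log2 scale (edgeR adjusted p = 0.0437). Psmb7 (-0.26 ± 0.095, edgeR adjusted p = 0.0524) and Psmb6 (-0.26 ± 0.10, edgeR adjusted p = 0.0841) had log2 fold changes of like size and did not pass.

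In the regulatory particle, none of the 6 ATPases passed the test, with log2 fold changes from -0.27 (Psmc5, edgeR adjusted p = 0.0777) to -0.11 (Psmc2) and a median of -0.16. The ubiquitin receptor Psmd4 (chr2:196198303-196207569 in Rnor_6.0, minus strand) fell, from 118, 186 and 203 CPM after sham to 105, 118 and 235 CPM after RYGB (lowest, median and highest). Its log2 fold change was -0.36 ± 0.11 (SE, edgeR adjusted p = 0.0219), and 7 of 14 RYGB-treated rats were below every sham-treated rat. The large base subunits had positive values instead: Psmd1 was at 157, 191 and 230 CPM after RYGB and at 139, 162 and 201 CPM after sham, a log2 difference of 0.18 ± 0.069 (edgeR adjusted p = 0.0686), and Psmd2 had a log2 difference of 0.10 (edgeR adjusted p = 0.28). In the lid, Psmd13 (-0.20, edgeR adjusted p = 0.0342) and Psmd8 (-0.22, edgeR adjusted p = 0.0474) fell, with all 14 RYGB-treated rats below the sham median of Psmd13. The lid scaffold Psmd11 (0.03), the deubiquitinase Psmd14 (-0.08) and the chaperone Psmd10 (0.08) did not pass, and none of the 3 chaperones did.

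**Figure D1:**
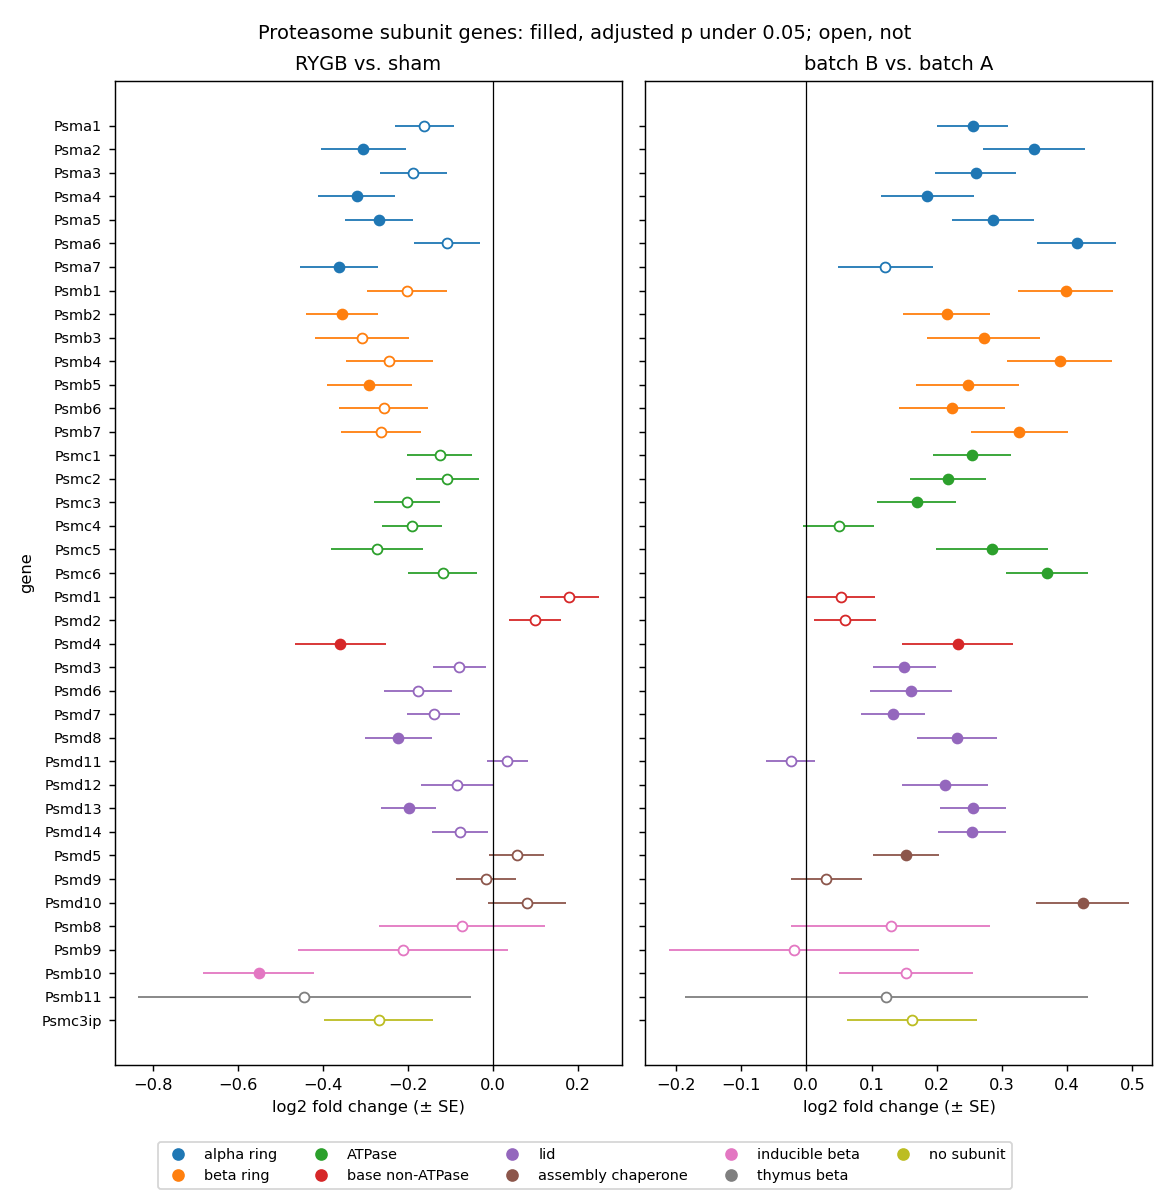
Log2 fold change with its SE (horizontal axis) for each of the 39 members tested (vertical axis, coloured by role), RYGB compared with sham on the left and batch B compared with batch A on the right. Filled points passed the edgeR test: 10 on the left, all below 0, and 28 on the right, all above 0.

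The inducible Psmb10 had the largest fall of the 10. It was at 15.5, 19.3 and 41.6 CPM in RYGB-treated rats and at 22.0, 31.9 and 48.1 CPM in sham-treated rats (lowest, median and highest), with 11 of 14 RYGB-treated rats below every sham-treated rat. The log2 fold change of Psmb10 (chr19:37909543-37912027 in Rnor_6.0, minus strand) was -0.55 ± 0.13 (SE, edgeR adjusted p = 0.00512). The other inducible subunits did not pass: Psmb8 had a log2 fold change of -0.07 ± 0.20 (edgeR adjusted p = 0.833) and Psmb9 of -0.21 ± 0.25 (edgeR adjusted p = 0.592).

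Single animals weighed on this count. The RYGB-treated rat with the highest levels, replicate 11 of batch A, had 214 CPM of Psma7, 122 CPM of Psmb2, 235 CPM of Psmd4 and 41.6 CPM of Psmb10, and without it 24 members passed, 23 lower and 1 higher, where 12.8% of all genes were lower. In the opposite direction, sham replicate 1 was low (136 CPM of Psma7, 74.4 CPM of Psmb2 and 22.0 CPM of Psmb10), and without it 17 passed, 16 lower and 1 higher, where 9.08% of all genes were lower. Without sham replicate 4 only 3 passed (background 8.39%), without sham replicate 2 only 5 (9.07%), and 6 passed without sham replicate 3 or 5 or without RYGB replicate 4, 9, 12, 13 or 14 (6.86% to 10.5% of all genes). Psma7, Psmb2 and Psmb10 passed in each of the 25 fits that left out 1 rat, Psma4 in 24, Psma5 and Psmd4 in 23, Psma2 and Psmd13 in 16, and Psmb5 and Psmd8 in 7. Without the 11 libraries low in hypothalamic markers, 2 of them sham, 3 of the 10 passed, where 6.95% of all genes did. By other choices of fit, 23 members passed with no batch term (background 25.6%), 6 with no filter on low counts (6.72%), 9 with the size factors of DESeq2 (12.3%), 11 with DESeq2 itself (16.5%) and 0 with a replicate block (0.0046%).

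Within batch A (11 RYGB-treated and 5 sham-treated rats), 0 members passed the edgeR test, where 2.41% of all genes did, and 16 had an unadjusted p under 0.05 (background 22.7%). Within batch B (3 and 6 rats), 9 members were lower and 2 higher, where 11.8% of all genes passed in either direction. The medians were -0.20 in batch A and -0.22 in batch B. Psma7 had log2 fold changes of -0.40 in batch A and -0.35 in batch B, and Psmb2 of -0.39 and -0.35. Psmb10 had -0.37 in batch A and -0.94 in batch B, Psmb8 had 0.38 and -0.67, and Psmd2 had -0.04 and 0.34. A test of the difference between batches found 0 members by edgeR (4 at an unadjusted p under 0.05, and a smallest adjusted p of 0.183 for Psmd2), where 0.0184% of genes passed (11.1% unadjusted).

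**Figure D2:**
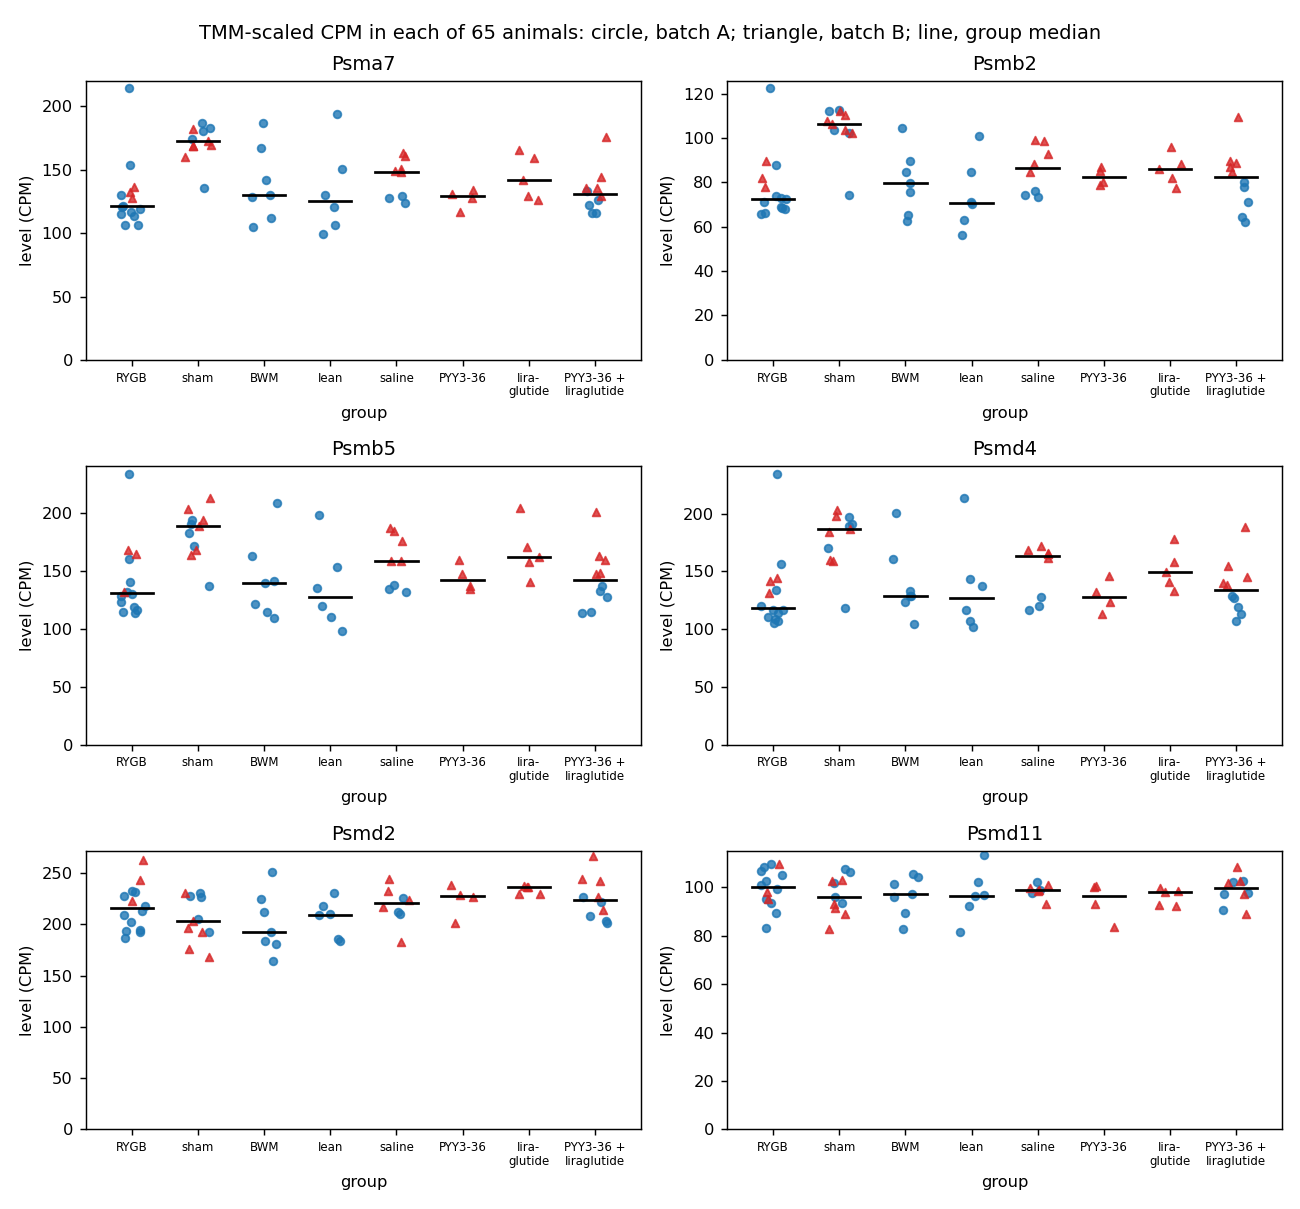
Level in CPM (vertical axis, from 0) of Psma7, Psmb2, Psmb5, Psmd4, Psmd2 and Psmd11 in each of the 65 rats by group (horizontal axis), with circles for batch A, triangles for batch B and a line at the group median. The Psma7 medians are 121 CPM after RYGB and 172 CPM after sham, with 1 RYGB-treated rat at 214 CPM, while the Psmd11 medians of all groups run from 96.1 to 100.2 CPM.

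The choice of control bore on this result. Compared with saline-treated rats in place of sham-treated rats, RYGB-treated rats had 0 members past the edgeR test (smallest adjusted p = 1, background 0.00457%) and a median log2 fold change of -0.06. The log2 fold change of Psma7 was -0.10 against saline and -0.36 against sham, that of Psmb2 was -0.05 against -0.36, and that of Psmb10 was -0.22 against -0.55. Saline-treated rats had 124, 148 and 163 CPM of Psma7 and 73.6, 86.5 and 99.3 CPM of Psmb2 (lowest, median and highest), between the RYGB and sham medians. In the comparison of sham with saline itself, 0 members passed the edgeR test, where 0.0137% of all genes did, 10 had an unadjusted p under 0.05 (background 12.9%), and the median was 0.13. The 3 members with the smallest p were Psmb2 (log2 difference 0.30), Psma7 (0.26) and Psma4 (0.25), with a smallest edgeR adjusted p of 0.231.

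BWM and lean rats had low levels of many members, but no member passed in either comparison with sham-treated rats, which share the sham animals with the RYGB comparison. In BWM rats Psma7 was at 105, 130 and 187 CPM and Psmb2 at 62.8, 79.8 and 105 CPM (lowest, median and highest). BWM compared with sham gave 0 of 39 (background 0.315%), 4 at an unadjusted p under 0.05 (12.4%), and a median log2 fold change of -0.14. The members with the smallest p were Psmb2 (-0.26, edgeR adjusted p = 0.275), Psma7 (-0.24) and the lid subunit Psmd6 (-0.22). In lean rats Psma7 was at 99.3, 125 and 194 CPM and Psmb2 at 56.1, 70.7 and 101 CPM. Lean compared with sham gave 0 of 39 (background 0%), 13 at an unadjusted p under 0.05 (12.3%), and a median of -0.17, led by Psmb2 (-0.37, edgeR adjusted p = 0.201), Psma7 (-0.29) and Psma4 (-0.29). Without lean replicate 6, 9 members were lower, where 2.72% of all genes were, and without sham replicate 1, 1 was (background 0.151%). Since both groups were in batch A only, their fits borrow the batch difference from other groups, and without a batch term 6 members passed for BWM (background 10.1%) and 14 for lean (10.8%). Within batch A alone, 0 members passed for BWM (background 1.71%) and 0 for lean (0%), with 8 and 12 at an unadjusted p under 0.05 (17.6% and 13.1%).

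RYGB-treated and BWM rats, whose weights differed at the end of the study, had no member past the edgeR test between them (background 0.302%), with 4 at an unadjusted p under 0.05 (12.6%) and a median log2 fold change of -0.06. Psmb10 was at 21.4, 27.5 and 33.7 CPM in BWM rats (lowest, median and highest), and 11 of 14 RYGB-treated rats were below every BWM rat. Its log2 fold change of RYGB against BWM was -0.43 ± 0.14 (SE, edgeR adjusted p = 0.22). Psmb8 had -0.50 ± 0.21 and Psmd1 0.18 ± 0.078, neither past the test. Without RYGB replicate 11, 1 member was lower, where 0.554% of all genes were.

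The gut hormone treatments gave no member past the edgeR test when compared with saline, their own control by minipump and injection. Psma7 was at 134, 131, 128 and 117 CPM in the 4 PYY3-36-treated rats and at 130, 165, 160, 142 and 126 CPM in the 5 liraglutide-treated rats. With both agents it was at 116, 131 and 176 CPM (lowest, median and highest). Each group overlapped the saline-treated rats of both batches together. All 4 PYY3-36-treated rats, which were in batch B, were below the 5 saline-treated rats of batch B (148 to 163 CPM of Psma7). The same separation held for Psmb7 but not for Psmb5 or Psmb6, and its share over all genes was not computed. PYY3-36 gave 0 of 39 (background 0%), with 1 at an unadjusted p under 0.05 (7.5%) and a median log2 fold change of -0.17. It was led by Psma1 (-0.21), the ATPase Psmc2 (-0.22) and Psmd14 (-0.19), with a smallest edgeR adjusted p of 0.653. Within batch B, 0 passed (background 0%), but 17 had an unadjusted p under 0.05, where 15.7% of all genes did, with a median of -0.19 and a smallest edgeR adjusted p of 0.0706. With only the PYY3-36 and saline groups in the fit, 18 had an unadjusted p under 0.05 (background 16%), and 0 passed (0.005%). Liraglutide gave 0 of 39 (background 0%), 0 at an unadjusted p under 0.05 (2.11%) and a median of -0.03, led by Psmc3ip (-0.24), Psmd8 (-0.14) and Psmb10 (-0.22). Within batch B it also gave 0 (background 0.00484%), with 1 at an unadjusted p under 0.05 (5.07%). PYY3-36 + liraglutide gave 0 of 39 (background 0.00457%), 0 at an unadjusted p under 0.05 (2.55%) and a median of -0.07, led by Psmd8 (-0.14), Psmb10 (-0.21) and the ATPase Psmc3 (-0.12).

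Compared with sham-treated rats, the same groups gave other counts. PYY3-36 + liraglutide then had 16 members lower and 1 higher by the edgeR test, where 14.7% of all genes passed in either direction. Psmb2 (-0.36), Psma7 (-0.36), Psmb10 (-0.54) and Psmd4 (-0.38) were lower and Psmd1 (0.22) was higher. PYY3-36 had 8 members lower and 0 higher, where 8.43% of all genes passed, among them Psmd4 (-0.57) and Psma7 (-0.48). Liraglutide had 0, where 0.096% of genes passed, and 12 at an unadjusted p under 0.05, where 16.8% of genes did (smallest adjusted p 0.107). These counts and that of RYGB share the same 11 sham-treated rats, so they are no separate observations of a fall.

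More members differed between the experimental periods than between any of the groups compared above. In batch B compared with batch A, with the groups in the fit, 28 of 39 members were higher and 0 lower by the edgeR test, where 19.4% of all genes were higher and 21.4% lower. The median log2 difference was 0.22, and no member had an absolute log2 difference over 1, as 4.97% of all genes did among the 40.7% called in either direction. Psma6, an alpha subunit, was at 93.6, 122 and 197 CPM in the 37 batch A libraries and at 141, 167 and 224 CPM in the 28 batch B libraries (lowest, median and highest), a log2 difference of 0.41 ± 0.060 (SE, edgeR adjusted p = 1.31e-07). The chaperone Psmd10 rose from a median of 8.62 to 11.2 CPM, by 0.42 ± 0.072 on the log2 scale (edgeR adjusted p = 2.9e-06). Psmc6 (0.37), Psmb1 (0.40), Psmb4 (0.39), Psma2 (0.35), Psma5 (0.29), Psmd13 (0.26), Psma1 (0.26) and Psmd14 (0.25) completed the 10 members with the smallest adjusted p.

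By role, the batch difference passed in 7 of 7 beta ring genes, 6 of 7 alpha ring genes, 5 of 6 ATPases, 7 of 8 lid genes, 2 of 3 chaperones, 1 of 3 base subunits and 0 of 3 inducible subunits. Psma7 (0.12), Psmc4 (0.05) and Psmd11 (-0.02) were the alpha ring, ATPase and lid genes that did not pass. Within single groups the edgeR test of batch B against A gave 26 members for PYY3-36 + liraglutide (background 27.7%), 20 for saline (17.5%), 0 for sham (8.78%, smallest adjusted p 0.0522) and 0 for RYGB (0.305%). At an unadjusted p under 0.05 there were 6 for sham (background 28.2%) and 4 for RYGB (17.4%). In tests of the difference of the batch effect between these groups, chosen after seeing the data, 0 members passed. At an unadjusted p under 0.05 there were 8 for PYY3-36 + liraglutide against sham (background 14.4%), 3 for saline against sham (11.9%), 1 for PYY3-36 + liraglutide against RYGB (4.35%) and 2 for saline against RYGB (8.84%).

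Fold changes went with exon length among the members and also among genes at large, where short and long genes had opposite signs. Among genes with a mean of at least 1 CPM, the median log2 fold change between RYGB and sham was -0.28 for exon lengths under 1000 bases. It was -0.14 from 1000 to under 1500, -0.08 from 1500 to under 2000 and 0.09 from 6000 up. The share of genes called lower went from 23.2% to 1.597%. For batch B against A the median went from 0.23 under 1000 bases to -0.17 from 6000 up, and the share called lower from 9.1% to 40.1%. The 11 members under 1000 bases had a median of -0.29 with 5 called, beside -0.28 for all genes of that length. The 12 members from 1000 to under 1500 bases had 3 called, where 15.5% of all genes of that length were lower. The 8 members from 1500 to under 2000 had 2 (11.3%). None was called among the 7 longer ones, which include Psmd1 and Psmd2. Of all genes, 7.2% were lower from 2000 to under 3000 bases and 3.57% from 3000 to under 4000. Across the 34 constitutive members, the 3 assembly chaperones included, log2 fold change and log10 exon length had r = 0.57 (rho 0.62) for RYGB against sham. For batch B against A they had r = -0.56 (rho -0.49). These values describe genes, which share libraries and are not independent replicates.

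Per animal, the mean log2 level of genes under 1000 bases minus that of genes of at least 4000 bases, centred over animals, had medians of 0.28 in sham-treated, 0.12 in saline-treated, -0.18 in RYGB-treated and -0.36 in lean rats, and of -0.20 in batch A and 0.11 in batch B. RYGB replicate 11, with high levels of most members, had the highest value, 0.80. With an offset for exon length in the edgeR fit, an alternative chosen after seeing the data, 7 members passed between RYGB and sham (background 10.9%): 6 of the 10 were still lower, and Psmd10 was higher. The median over members went from -0.20 to -0.11. For batch B against A 18 members passed with this offset in place of 28 (background 39.1%). In other complexes, between RYGB and sham 13 of 83 ribosomal protein genes and 25 of 45 respiratory complex I genes were lower and 0 higher, with medians of -0.31 and -0.32, and 1 of 8 genes of the chaperonin CCT was lower (median -0.08). These stand beside 6.51% of all genes and 23.2% of genes under 1000 bases called lower. In batch B, 61 of 83, 35 of 45 and 8 of 8 of these were higher, where 19.4% of all genes were. The part of transcript length in the result was not tested beyond this offset.

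**Figure D3:**
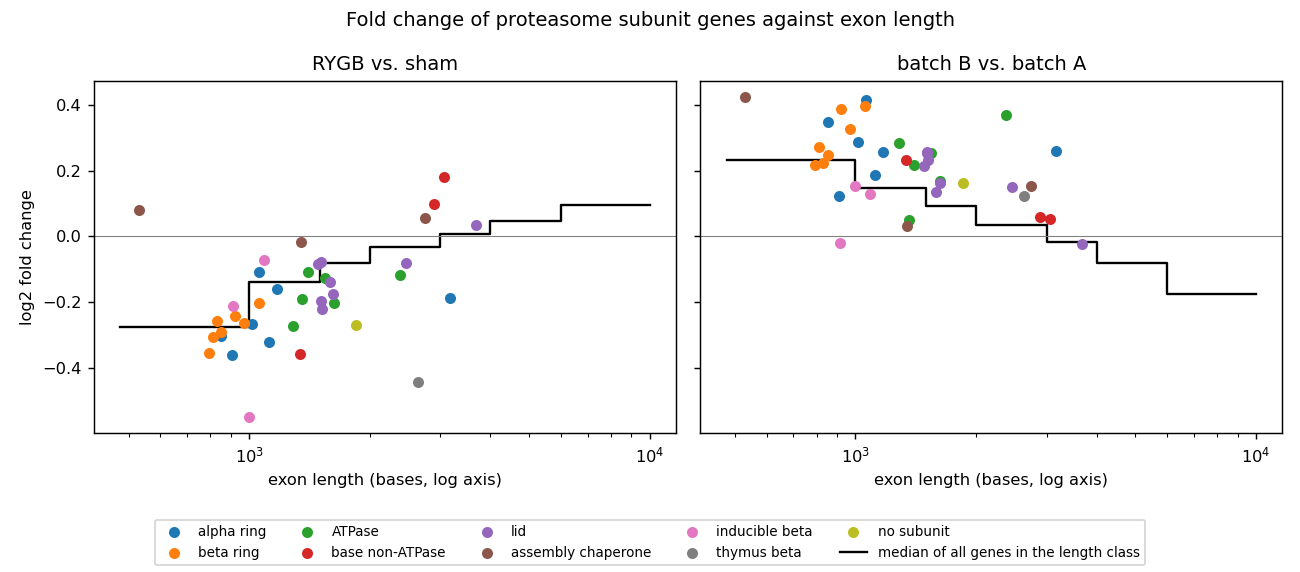
Log2 fold change of each member (vertical axis, coloured by role) against its exon length in bases (horizontal, log axis), with a black step line at the median of all genes in each length class. For RYGB against sham the line climbs from -0.28 under 1000 bases to 0.09 from 6000 bases, and the 11 members under 1000 bases have a median of -0.29.

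Marker levels of other cells in RYGB-treated and sham-treated rats are described here without a test. The ranges given overlapped, and the groups differ in batch make-up. All 6 meningeal markers were measured, and their summed level was 37.02, 161 and 1266 CPM in RYGB-treated rats and 23.9, 53.2 and 334 CPM in sham-treated rats (lowest, median and highest). The 5 oligodendrocyte markers were at 6370, 12259 and 37263 CPM after RYGB and at 8187, 18855 and 37206 CPM after sham, and the 5 neuronal markers at 1601, 2682 and 6673 CPM and at 2808, 3440 and 5489 CPM. The 6 microglial markers had medians of 249.4 and 263.5 CPM, and the 12 hypothalamic markers of 2139 and 1990 CPM. Their part in the members' fall was not tested.

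The inducible subunits were minor forms with a wide range between rats. Per length, Psmb8 was at 2.55% of Psmb5, Psmb9 at 5.63% of Psmb6 and Psmb10 at 12.6% of Psmb7 (medians over 65 rats), with ranges of 1.11% to 7.38%, 1.90% to 19.2% and 7.75% to 21.5%. BWM rats, all in batch A, had the highest group medians, 3.20%, 9.22% and 17.7%, beside 2.18%, 4.90% and 13.2% in sham-treated and 2.64%, 5.72% and 11.5% in RYGB-treated rats. Some other groups were near BWM: lean rats had 3.19%, 6.26% and 13.2%, and PYY3-36-treated rats 3.04%, 8.27% and 12.6%. Psmb9 was at 4.41, 11.2 and 20.3 CPM in BWM rats, at 6.15, 8.08 and 12.9 CPM in sham-treated rats (lowest, median and highest), and at 12.98, 15.2, 10.2 and 7.59 CPM in the 4 PYY3-36-treated rats. The ranges overlapped in every case, and no inducible subunit passed in the comparison of BWM with sham.

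Correlations were computed across the 65 rats on log2 levels after the mean of each group and batch was removed, for 11 pairs, with permutation p-values within group and batch and Benjamini-Hochberg adjustment. Psmb8 (chr20:3990809-3993772, plus strand) and Psmb9 (chr20:3973424-3978845, minus strand), neighbours in the major histocompatibility region of Rnor_6.0, had r = 0.78 and rho = 0.64 (permutation p = 1e-05, the smallest that these permutations can give, adjusted p = 2e-05). Without the 2 rats farthest from the median r was 0.72. Within batch A r was 0.89 and within batch B 0.22, so the relation of Psmb8 with Psmb9 rested on batch A. Psmb9 and the peptide transporter gene Tap1 had r = 0.85 and rho = 0.79 (permutation p = 1e-05, adjusted p = 2e-05), with 0.87 in batch A, 0.80 in batch B and 0.83 without the 2 farthest rats. Psmb8 and Tap1 had r = 0.76 and rho = 0.60, with 0.88 in batch A, 0.28 in batch B and 0.72 without the 2 farthest rats (permutation p = 1e-05).

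Against their constitutive counterparts, Psmb8 and Psmb5 had r = 0.06 and rho = -0.01 (permutation p = 0.712), and Psmb9 and Psmb6 had r = 0.13 and rho = -0.02 (permutation p = 0.389, adjusted p = 0.428). Psmb10 went with both kinds: r was 0.57 and rho 0.43 with Psmb7 (permutation p = 0.00021, adjusted p = 0.00033), with 0.75 in batch A, 0.01 in batch B and 0.39 without the 2 farthest rats. With Psmb8, Psmb10 had r = 0.46 and rho = 0.41 (permutation p = 0.00167, adjusted p = 0.0023), with 0.50 in batch A, 0.32 in batch B and 0.33 without the 2 farthest rats. The constitutive catalytic subunits moved tightly together in both batches, with r = 0.90 and rho = 0.86 for Psmb5 and Psmb6 and r = 0.92 and rho = 0.90 for Psmb5 and Psmb7 (permutation p = 1e-05 for each). Without the 2 farthest rats these were 0.85 and 0.89. Psmd1 and Psmd2 had r = 0.86 and rho = 0.85 (permutation p = 1e-05), and 0.85 without the 2 farthest rats, but Psmd2 and Psma7 had r = -0.17 and rho = -0.09 (permutation p = 0.273, adjusted p = 0.334). These levels were scaled to library size, but genes of a rat share its library, and base composition and exon length were not adjusted for. Psmb5, Psmb6 and Psmb7 have 852, 832 and 972 bases, Psmd1 and Psmd2 have 3068 and 2897, and Psma7 has 908. Psmb8 and Psmb9, which did not go with Psmb5 and Psmb6, are also short (1086 and 913 bases). The part of exon length in these correlations was not tested.

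**Figure D4:**
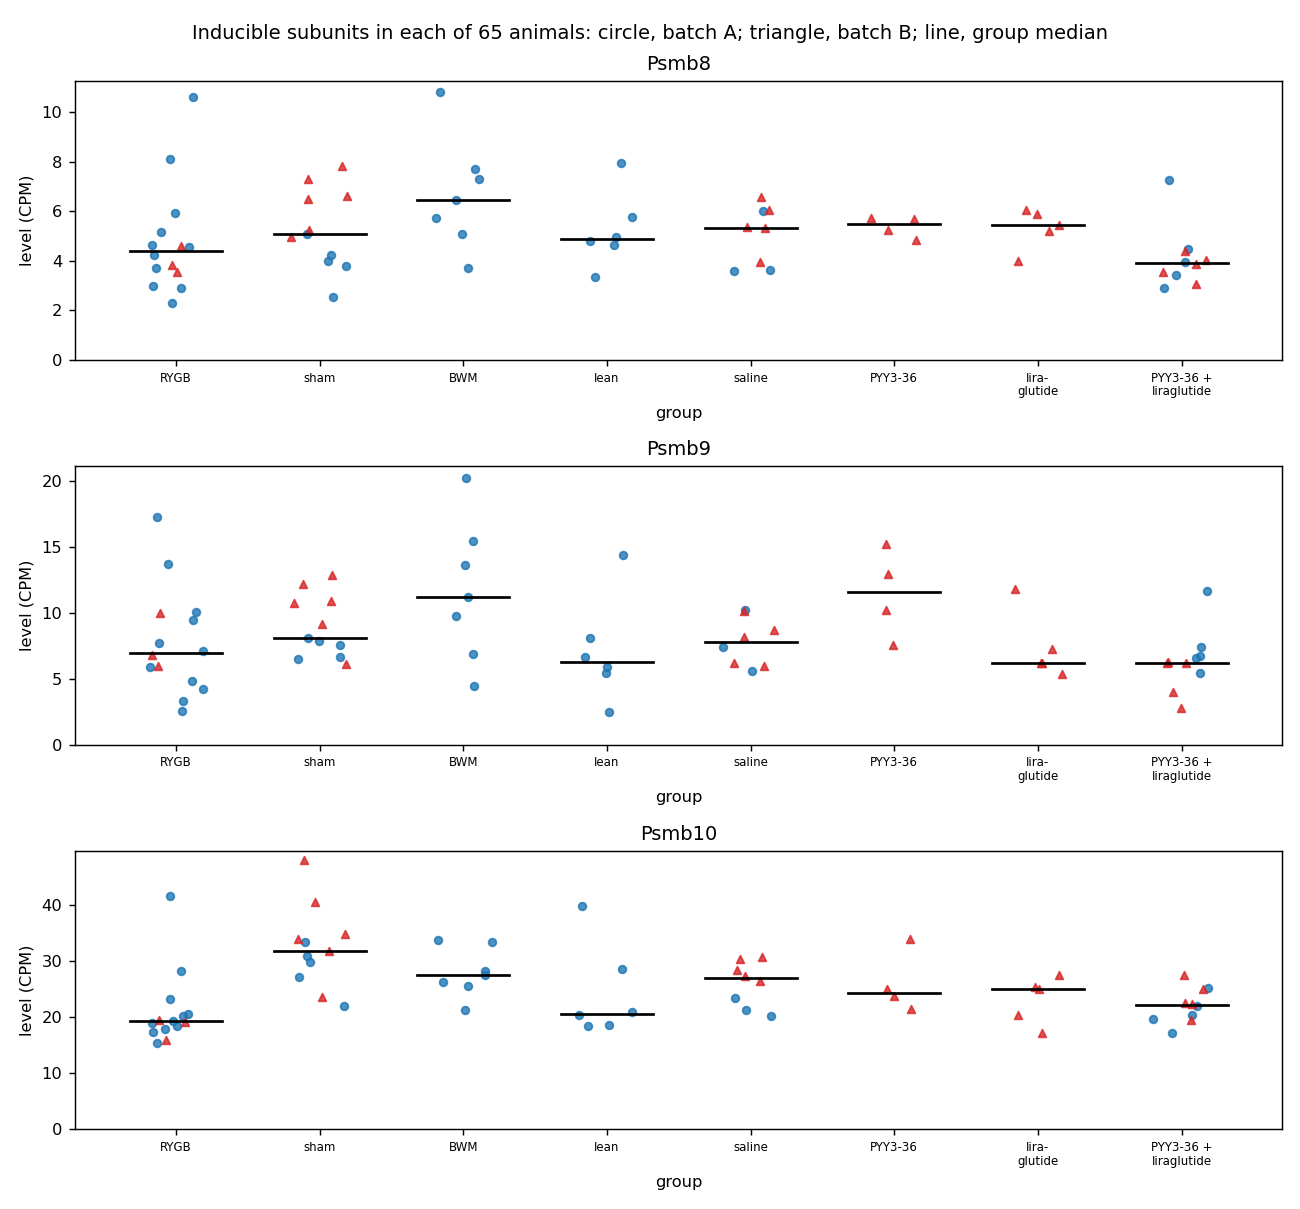
Level in CPM (vertical axis, from 0) of Psmb8, Psmb9 and Psmb10 in each of the 65 rats by group (horizontal axis), with circles for batch A, triangles for batch B and a line at the group median. Psmb10 has medians of 19.3 CPM after RYGB and 31.9 CPM after sham, and the groups overlap for each gene.

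Around the subunits, 31 further genes of the pathway were measured, and between RYGB and sham 3 were lower and 2 higher, beside 6.51% and 6.52% of all genes. The lower ones were Psmg4, a chaperone of core particle assembly (-0.56, edgeR adjusted p = 0.00205), Shfm1, the small lid subunit (-0.44, edgeR adjusted p = 0.0145), and Rps27a, which encodes ubiquitin fused to a ribosomal protein (-0.38, edgeR adjusted p = 0.0393). The higher ones were Nfe2l1, the activator of subunit transcription (0.21, edgeR adjusted p = 0.0361), and Nploc4, a cofactor of the unfoldase Vcp (0.36, edgeR adjusted p = 0.016). Pomp, the maturation factor of the core particle, had -0.34 (edgeR adjusted p = 0.0584), and the interferon-induced activator subunits Psme1 (-0.25) and Psme2 (-0.24) did not pass. In batch B, 16 of the 31 were higher and 2 lower, where 19.4% of all genes were higher and 21.4% lower. All 5 core particle assembly genes rose, with Pomp at 0.52, as did the proteasome-bound deubiquitinases Usp14 (0.37) and Uchl5 (0.36), while Ddi2, the protease that activates Nfe2l1, fell by 0.59 and the activator Psme4 fell by 0.37 on the log2 scale.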

How the data were processed

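Libraries of poly-A RNA from isolated hypothalami were sequenced with strand-specific single-end reads. The authors trimmed reads with Cutadapt, aligned them with STAR 2.7.2b to Rnor_6.0 with RefSeq annotation, and counted exon reads per gene with featureCounts 1.6.4, giving reads with several alignments or features as fractions. What was deposited are thus estimated counts: 30.3% of the nonzero values were not whole, and rounding them moved no library total by more than 0.00593%. Of the 40 members, 35 had values that were not whole, so reads shared with copies or overlapping genes entered them.

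Rounded counts were tested with edgeR 4.0.16 (R 4.3.3, TMM scaling, filterByExpr keeping genes by at least 10 counts and 15 in all, robust quasi-likelihood fit) on group and batch over all 65 libraries, and 21882 genes were tested. A gene was called at a Benjamini-Hochberg adjusted p under 0.05. The study used DESeq2 with shrunken fold changes and an absolute log2 fold change over 1. As alternatives, DESeq2 1.42.0 was run here with a batch term at an adjusted p under 0.05, without that shrinkage or cut. The cut at 1 was applied to the edgeR results only, so the study's own rule was not repeated. CPM are counts scaled to the TMM library size, and TPM are also divided by exon length. All tests are two-sided. Labels name 1 library per animal, and no pair of libraries was alike within sampling noise. Groups and batches came from the labels.

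Named with values were the catalytic, inducible and ATPase subunits, Psmd10, Psmd11 and Psmd14, up to 10 called members per comparison by adjusted p, and where none was called the 3 smallest p. The members, lists and tests were chosen with earlier results of these data known. Replicate numbers, shared by name between groups, were checked by the correlation of deviations from group means. Every pair was over 0.1 only for liraglutide and saline (5 pairs, 0.36 to 0.68). The test code was tested on simulated data. Alternatives were another scaling, no filter, no batch term, the other control, single batches, only the groups compared, a replicate block, and leaving out each rat. An exon length offset, leaving out libraries low in hypothalamic markers, and the difference of the batch effect between groups were added after seeing the data. The result of 1 further gene is not reported here.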

Additional observations from a re-analysis of the deposited data

Results flagged for a closer look

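Single rats stood far from the rest of their group for 12 of 138 combinations of 23 genes and 6 groups of 4 to 10 rats (gap to the nearest rat as a share of the group's range, Dixon's 95% limit, which chance passes in about 1 in 20 groups). PYY3-36 + liraglutide replicate 10 was high for Psma2 (175 CPM, others 85.3 to 132), Psma7 (176 CPM, others 116 to 144), Psmb6 (174 CPM, others 95.2 to 132) and Psmc5 (418 CPM, others 206 to 319). Lean replicate 6 was high for Psmb6 (164 CPM, others 87.7 to 109), Psmd4 (213 CPM, others 101 to 143) and Psmd10 (10.97 CPM, others 7.32 to 8.54). PYY3-36 + liraglutide replicate 1 was high for the inducible Psmb8 (7.24 CPM, others 2.89 to 4.49) and Psmb9 (11.6 CPM, others 2.75 to 7.42). BWM replicate 2 was high for Psma2 (160.4 CPM, others 92.7 to 122), and liraglutide replicate 2 for Psma4 (133 CPM, others 108 to 112). PYY3-36 replicate 4 was low for the lid subunit Psmd8 (100.4 CPM, others 109 to 111). Groups of more than 10 rats, RYGB and sham among them, were not examined in this way.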

How the results depend on the processing

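The 10 members lower after RYGB than after sham kept a negative fold change in the 11 other settings and without any single rat. The number called is given with the share of all genes called in brackets. It was 6 with no filter on low counts (6.72%), 23 with no batch term (25.6%) and 0 against saline (0.00457%). It was 3 without the libraries low in hypothalamic markers (6.95%) and 0 within batch A (2.41%). With the replicate block it was 0 (0.0046%), and at an absolute log2 fold change over 1 it was 0 (2.38%). It was 9 with DESeq2 size factors (8 lower and Psmd1 higher, 12.3% of all genes) and 11 with DESeq2 (10 lower, 1 higher, 16.5% of all genes). Without a batch term 6 members passed between BWM and sham (10.1%) and 14 between lean and sham (10.8%). Against sham, 8 passed for PYY3-36 (8.43%) and 17 for PYY3-36 + liraglutide (14.7%). For batch B against A, 18 passed with the exon length offset (39.1%), 0 within RYGB (0.305%), 0 within sham (8.78%) and 0 at an absolute log2 fold change over 1 (4.97%). Leaving out 1 rat at a time gave 3 to 24 calls for RYGB against sham, where 8.39% and 22.6% of all genes passed in those 2 fits. Lean against sham gave 0 to 9 (5.08% in the fit with 9), and RYGB against BWM 0 to 1 (0.668% in the fits with 1). Batch B against A gave 26 to 29 (38.7% and 44%), and the other comparisons gave 0 (at most 1.87%). With rats left out, the median log2 fold change ran from -0.22 to -0.16 for RYGB against sham, but changed sign for RYGB against BWM (-0.09 to 0.05) and liraglutide against saline (-0.09 to 0.02). The cause was not tested, except that single batches and left-out rats hold fewer samples. With a replicate block 0 members passed in all 8 comparisons of groups. For liraglutide against saline, where every numbered pair correlated, this changed no call. The study states no pairing, and saline replicates 1 to 3 were in batch A while all liraglutide-treated rats were in batch B. Counts of 20041010 or more per library left Psma8 and Psmb11 too low to compare between groups.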
